A study of Mus musculus with 6 samples.

Results

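Chemokines are small secreted proteins that guide leukocytes and other migrating cells, and their receptors are G protein-coupled receptors on the cells that respond. The genes described here are the 56 rows of the deposited gene table, out of 22487, whose symbol names a CC, CXC, CX3C or XC chemokine, a receptor of one of these classes or an atypical chemokine receptor, and which had a count in at least 1 library. They comprise 34 ligand genes and 22 receptor genes. They were measured by poly(A) RNA sequencing of the ovary of adult female rats labelled WT, without a strain, in 2 groups of 3 libraries: controls labelled with no treatment, and animals exposed to cowshed PM2.5, the fine fraction of airborne particulate matter. All titles give 30 days without saying what is counted. Nothing in the labels ties the libraries to different animals, and the p-values therefore measure only the spread between these samples, which may be technical. The labels list the organism as mouse, but all 22487 gene identifiers are rat Ensembl identifiers, and the samples are treated as rat.

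Inflammatory chemokines are induced by cytokines and tissue injury and draw monocytes, neutrophils or T cells, while homeostatic chemokines are made continuously and place cells within a tissue. Signalling receptors act through inhibitory G proteins, whereas atypical receptors bind and remove chemokines without that signal. In the ovary, leukocytes enter the follicle wall at ovulation and the corpus luteum as it forms and regresses. CXCL12 from ovarian stroma and follicle cells acts through CXCR4, and CCL2 is associated with the entry of monocytes into the corpus luteum.

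Library totals ran from 47662338 to 60749578 counts, and the 56 genes together held between 19104 and 42559 of them. Values are given as CPM, the count divided by the TMM-scaled library total over tested genes and multiplied by 1e+06, or as the authors' FPKM, which also divides by gene length. Of the 56 genes, 32 reached 0.5 FPKM on average across the 6 libraries and entered the test of PM2.5 over control, fitted over all 15303 such genes with edgeR's quasi-likelihood test and Benjamini-Hochberg adjustment. The members nearest that limit were Ccr7, at a mean of 0.496 FPKM and not tested, and Ccl3, at 0.535 FPKM and tested. The symbols named as markers of the family, Ccl2 and Cxcl12, had counts in every library. Among the cell type markers, 3 of 4 erythroid genes rose in edgeR's adjusted test, and their sum was 657 to 711 CPM in the controls and 2564 to 4032 CPM in PM2.5. Their part in the values below was not tested.

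Cxcl14, a chemokine made continuously by epithelial and stromal cells, and Ackr4, an atypical receptor that removes CCL19, CCL21 and CCL25, fell in the PM2.5 libraries by ratios of means of 3.95 and 4.36. They were the 2 of 32 tested members with an adjusted p under 0.05 from edgeR's quasi-likelihood test, a rule that 0.928% of all tested genes met (0.738% lower and 0.190% higher). In edgeR's test no member passed as higher, and 1 did with DESeq2. DESeq2 called 8 members lower and 1 higher, where 6.77% of all tested genes were called lower and 4.78% higher. Cxcr4, the CXCL12 receptor, missed the threshold narrowly with a larger difference, and Cxcr1, a neutrophil chemokine receptor, had the most negative fold change of the tested members. Without adjustment 10 of the 32 had p below 0.05, 9 lower and 1 higher in PM2.5, beside 20.9% of all tested genes (11.7% lower and 9.17% higher). The log2 fold change was below 0 in 23 of the 32, beside 49.6% of all tested genes. Its median was -0.69 over the tested members and 0.00 over all tested genes. In 11 of the 32 the libraries of the groups did not overlap, 10 lower and 1 higher, beside 27.2% of all tested genes (15.2% lower and 12.1% higher).

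Both calls depended on having all or nearly all of the libraries in the fit. The Ackr4 call ended when any 1 library was left out (adjusted p from 0.0661 to 0.230, log2 fold change from -2.39 to -1.95). The Cxcl14 call ended without any library other than control 2 (adjusted p from 0.0247 to 0.230, log2 fold change from -2.21 to -1.78). Leaving out a library also lowered the number of genes called in the whole table from 142 to between 0 and 7.

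**Figure D1:**
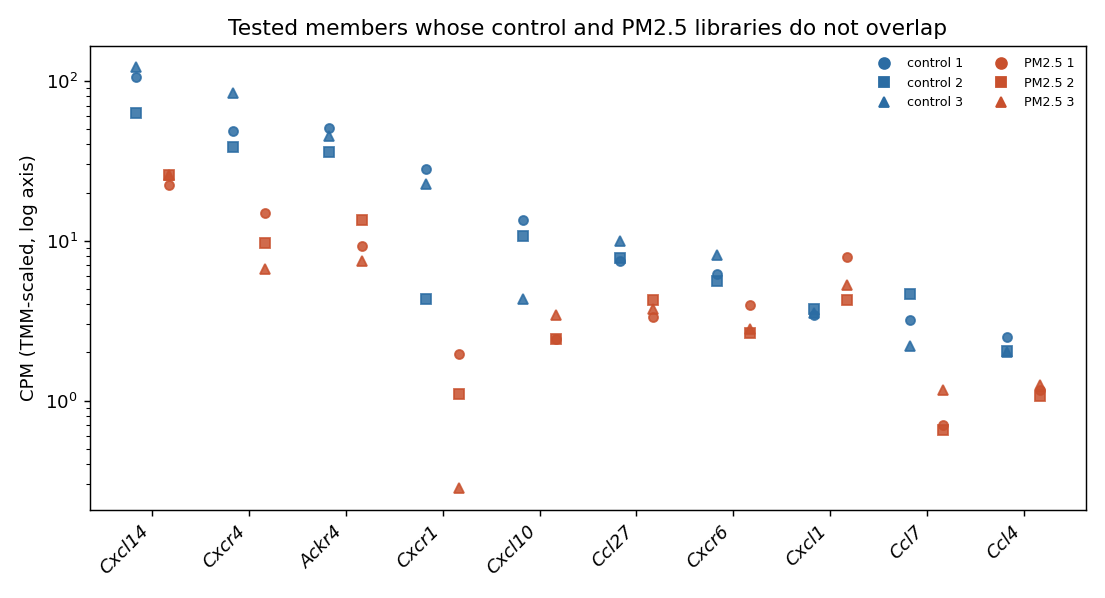
CPM of 10 tested members whose 3 control libraries (blue) and 3 PM2.5 libraries (orange) do not overlap, on a log axis, with 1 symbol shape per library number. PM2.5 libraries lie below the controls in all shown except Cxcl1, where they lie above.

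Cxcl14 (ENSRNOG00000011984, chromosome 17, 8317933 to 8324839) had 106, 62.8 and 122 CPM in the controls, numbered 1 to 3, and 22.3, 25.7 and 25.6 CPM in PM2.5 libraries 1 to 3. The groups did not overlap, and the PM2.5 libraries lay close together. The log2 fold change was -1.98 ± 0.26 (SE), and edgeR's test gave an adjusted p of 0.0434. Means were 96.9 ± 30.6 and 24.5 ± 1.93 CPM (± SD, n = 3 each).

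Ackr4 (ENSRNOG00000011478, chromosome 8, 104716067 to 104723617) had 51.1, 35.9 and 45.3 CPM in the controls and 9.31, 13.5 and 7.49 CPM in PM2.5 libraries 1 to 3. Every PM2.5 library was below every control. The log2 fold change was -2.12 ± 0.27, with an adjusted p of 0.0434. Ackr4 lies within the span of Acad11, a gene of the opposite strand, and no source used here says whether the counting used strand, so reads of the pair may not be separated. Acad11 itself averaged 32.5 and 32.4 CPM in control and PM2.5 libraries, with a log2 fold change of -0.00 ± 0.15. Coordinates are those of the deposited table, and no source used here names their build.

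All 6 tested signalling receptors had a negative log2 fold change. Cxcr4 (ENSRNOG00000003866, chromosome 13, 40077976 to 40081883) had 48.7, 38.5 and 84.3 CPM in the controls and 14.8, 9.64 and 6.69 CPM in PM2.5 libraries 1 to 3. The groups did not overlap, and the ratio of means was 5.51. The log2 fold change was -2.46 ± 0.40, and the adjusted p of 0.0515 missed the threshold. It passed with a filter at a mean of 1 FPKM (0.0489), with scaling by library size alone (0.0471), with limma on log2(FPKM + 1) (0.0403) and with DESeq2 (3.61e-07). With 1 library left out, its adjusted p was between 0.0706 and 0.249.

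Cxcr1, which with CXCR2 reads the neutrophil-attracting CXC chemokines, had 27.9, 4.30 and 22.6 CPM in the controls and 1.96, 1.10 and 0.282 CPM in PM2.5 libraries 1 to 3. Control 2 was well below the other controls and still above each PM2.5 library. The log2 fold change was -4.03 ± 0.92 with an adjusted p of 0.0964, or 2.34e-05 with DESeq2, and on the log2(FPKM + 1) scale of limma, which understates changes of low genes, it was -2.14. Cxcr2, also on chromosome 9, had between 5 and 42 counts per library and lay below the FPKM limit for testing.

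Of 6 listed neutrophil markers, 5 were in the table and 2 reached the test, S100a8 at a log2 fold change of 1.76 ± 1.04 and S100a9 at 0.86 ± 0.44, neither of which passed in edgeR or DESeq2. S100a8 had 19, 0 and 10 counts in the controls and 43, 31 and 35 in PM2.5 libraries 1 to 3, so its groups did not overlap. The summed level of the 5 markers was 2.81 to 3.49 CPM in the controls and 2.90 to 6.60 CPM in PM2.5. Means in control and PM2.5 libraries were 0.315 and 0.340 CPM for Mpo, 0.978 and 0.919 CPM for Csf3r, and 0.300 and 0.138 CPM for Ngp. These defining genes were each below 2 CPM in every library, and Mpo was at 0 in control 3 and Ngp at 0 in PM2.5 library 3.

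Cxcr6, which binds CXCL16 and marks subsets of T and NK cells, had 6.23, 5.61 and 8.12 CPM in the controls and 3.95, 2.64 and 2.80 CPM in PM2.5 libraries 1 to 3. The groups did not overlap (log2 fold change -1.09 ± 0.33, adjusted p = 0.147 in edgeR and 0.0255 in DESeq2). Its span overlaps Fyco1 on the opposite strand, which had a log2 fold change of 0.15 ± 0.26.

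Cxcr3, the receptor of the interferon-induced chemokines on activated T cells, had 1.95 ± 0.608 and 1.16 ± 0.552 CPM in control and PM2.5 libraries. Ccr10, a receptor of CCL27 and CCL28, had 1.38 ± 0.452 and 0.890 ± 0.438 CPM. Both overlapped between groups and neither passed (adjusted p 0.428 and 0.537). Among the atypical receptors, Ackr3, which removes CXCL12, had 21.1, 60.3 and 30.6 CPM in the controls and 27.2, 16.6 and 23.6 CPM in PM2.5, where control 2 stood above the rest (log2 fold change -0.73 ± 0.40, adjusted p = 0.340). Ackr1, the Duffy antigen of venular endothelium and red cells, had 5.13 ± 4.02 and 3.27 ± 1.11 CPM and did not pass (adjusted p = 0.610). The sign of Ackr1 turned without control 2, from -0.65 to 0.14.

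Over all 22 receptor genes, tested or not, 19 had a lower mean CPM in PM2.5 and 9 had every PM2.5 library below every control. Over all 56 members, 42 had a lower mean, 16 lay wholly below the controls and 2 wholly above. Over all genes of the table, 50.0% had a lower mean, 12.4% lay wholly below the controls and 9.68% wholly above. The summed receptor level was 190, 180 and 217 CPM in the controls and 75.0, 55.1 and 58.5 CPM in PM2.5 libraries 1 to 3. Cxcr4, Ackr4, Ackr3 and Cxcr1 made up most of that sum. Without Cxcr4 and Cxcr1 the other 16 signalling receptors still summed to between 26.8 and 36.0 CPM in the controls and between 10.8 and 16.8 CPM in PM2.5. In bulk tissue, fewer cells of a type and less RNA per cell cannot be told apart.

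Many of these receptors are leukocyte genes, and leukocyte markers were measured beside them. The 4 markers Ptprc, Coro1a, Cd53 and Laptm5 summed to 66.2 to 77.7 CPM in the controls and 42.6 to 51.3 CPM in PM2.5, and the first 3 lay apart between groups while Laptm5, at a log2 fold change of 0.05 ± 0.19, did not. Of the 4 dendritic cell markers, Cd83 overlapped between groups and only Itgax had an unadjusted p below 0.05 in edgeR. Batf3 lay apart narrowly, at 5.67 CPM in control 2 and 5.58 CPM in PM2.5 library 3. Together the 4 summed to 35.5 to 41.0 CPM in the controls and 16.3 to 26.4 CPM in PM2.5. By contrast, the lists of 8 macrophage markers (148 to 187 CPM in controls, 137 to 259 CPM in PM2.5), 8 T and NK cell markers (9.98 to 14.9 and 10.6 to 13.4 CPM) and 4 B cell markers (13.8 to 21.5 and 12.9 to 29.2 CPM) overlapped. None of the 24 tested markers in these 5 lists passed the adjusted test in edgeR. Of the 24, 5 had an unadjusted p below 0.05 in edgeR and 2 passed with DESeq2, all lower. Over all tested genes the lower shares were 11.7% and 6.77%, and the shares in either direction 20.9% and 11.5%. In 7 of the 24 every PM2.5 library was below every control, beside 15.2% of all tested genes. The part of these markers in the receptor values was not tested.

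**Figure D2:**
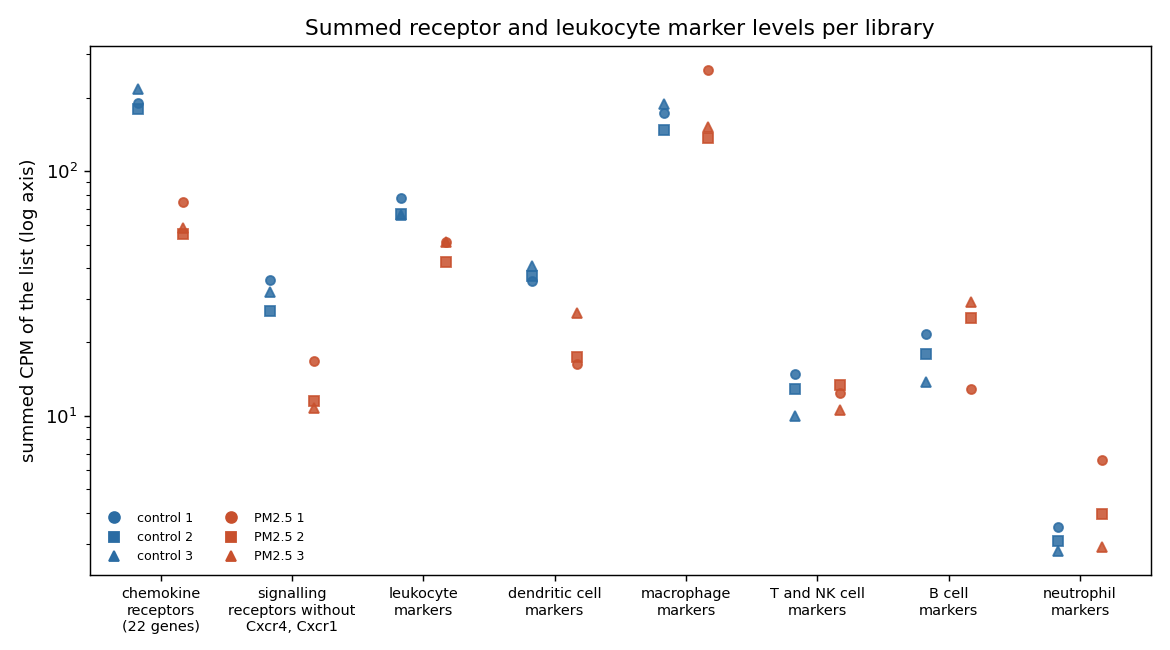
Summed CPM per library, on a log axis, with controls in blue and PM2.5 in orange. Shown are all 22 receptor genes, the 16 signalling receptors other than Cxcr4 and Cxcr1, and lists of cell type markers. Receptor sums, leukocyte markers and dendritic cell markers lie apart between groups, and macrophage, T and NK cell, B cell and neutrophil markers overlap.

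The inflammatory CC ligands had negative log2 fold changes at 8 of 10 tested members, beside 49.6% of all tested genes, with a median of -0.97. None passed the adjusted test in edgeR. In edgeR 2 had an unadjusted p below 0.05, both lower, beside 20.9% of all tested genes (11.7% lower). DESeq2 called 1, as lower, beside 11.5% of all tested genes (6.77% lower). Ccl7, a monocyte attractant, had 3.18, 4.67 and 2.18 CPM in the controls and 0.706, 0.659 and 1.17 CPM in PM2.5 libraries 1 to 3. The groups did not overlap (log2 fold change -1.98 ± 0.47, adjusted p = 0.101 in edgeR and 0.00562 in DESeq2). Ccl2, which lies near it on chromosome 10 and is the main ligand of CCR2, had 8.83, 8.64 and 3.15 CPM in the controls and 1.28, 2.17 and 5.12 CPM in PM2.5. PM2.5 library 3 exceeded control 3, so the groups overlapped (log2 fold change -1.27 ± 0.63, adjusted p = 0.302).

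Ccl4, an attractant of monocytes and T cells, had 2.49, 2.05 and 2.00 CPM in the controls and 1.16, 1.07 and 1.25 CPM in PM2.5. Its groups were apart (log2 fold change -0.91 ± 0.35, adjusted p = 0.210). Ccl3 partly overlaps Ccl4 on the opposite strand, and their reads may not be separated there. Ccl3 had 0.454 ± 0.134 and 0.469 ± 0.225 CPM (log2 fold change 0.05 ± 0.52). Ccl5, which draws T cells, had 8.69 ± 4.48 and 6.46 ± 1.77 CPM (log2 fold change -0.43 ± 0.44), and without control 1 its difference was 0.05.

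The eotaxins Ccl11 and Ccl24, which draw eosinophils through CCR3, had log2 fold changes of -1.03 ± 0.57 and -1.08 ± 0.78, and in both control 2 was the highest library. Summed eosinophil markers were 0.990 to 1.53 CPM in the controls and 0.659 to 1.07 CPM in PM2.5, and their part was not tested. Ccl20, the CCR6 ligand, was at -1.10 ± 0.61, with 0.711 to 1.98 CPM in the controls and 0.362 to 1.11 CPM in PM2.5. Ccl6 was at 0.36 ± 0.54, where PM2.5 library 1 had 19.4 CPM against 5.61 to 11.6 CPM in the other 5 libraries, and without that library the difference was -0.43. Ccl12 was at -0.32 ± 1.05 and ranged from -1.67 without PM2.5 library 3 to 0.99 without control 1. All 5 overlapped between groups, with adjusted p between 0.344 and 0.888.

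Both tested interferon-induced ligands of CXCR3 had negative log2 fold changes, and neither passed the adjusted test in edgeR. In edgeR 1 had an unadjusted p below 0.05, and DESeq2 called 1, beside 20.9% and 11.5% of all tested genes. Cxcl10 had 13.6, 10.7 and 4.30 CPM in the controls and 2.44, 2.44 and 3.42 CPM in PM2.5 libraries 1 to 3. Its groups did not overlap, with control 3 nearest to the PM2.5 range (log2 fold change -1.78 ± 0.47, adjusted p = 0.121 in edgeR and 0.00763 in DESeq2). Cxcl9 had 58.6, 39.5 and 42.8 CPM in the controls and 22.6, 25.9 and 48.3 CPM in PM2.5. PM2.5 library 3 lay within the control range (log2 fold change -0.54 ± 0.32, adjusted p = 0.374). Cxcl11 had 5 to 33 counts per library and was not tested.

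Of the 4 neutrophil-attracting CXC ligands 2 were tested, and neither passed in edgeR (0 at an unadjusted p below 0.05) or DESeq2. Cxcl1 had 3.43, 3.76 and 3.55 CPM in the controls and 7.88, 4.28 and 5.28 CPM in PM2.5 libraries 1 to 3. It was the tested member with every PM2.5 library above every control and it did not pass (log2 fold change 0.70 ± 0.34, adjusted p = 0.292). Cxcl2 had 133 counts in PM2.5 library 1 and between 0 and 34 in the other 5 libraries (log2 fold change 1.16 ± 1.51, adjusted p = 0.694), so its mean difference came from 1 library. PM2.5 libraries 2 and 3, at 0.198 and 0.121 CPM, were below controls 1 and 2, at 0.607 and 0.665 CPM. Cxcl3 and Cxcl6 had at most 20 counts in a library and lower means in PM2.5.

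**Figure D3:**
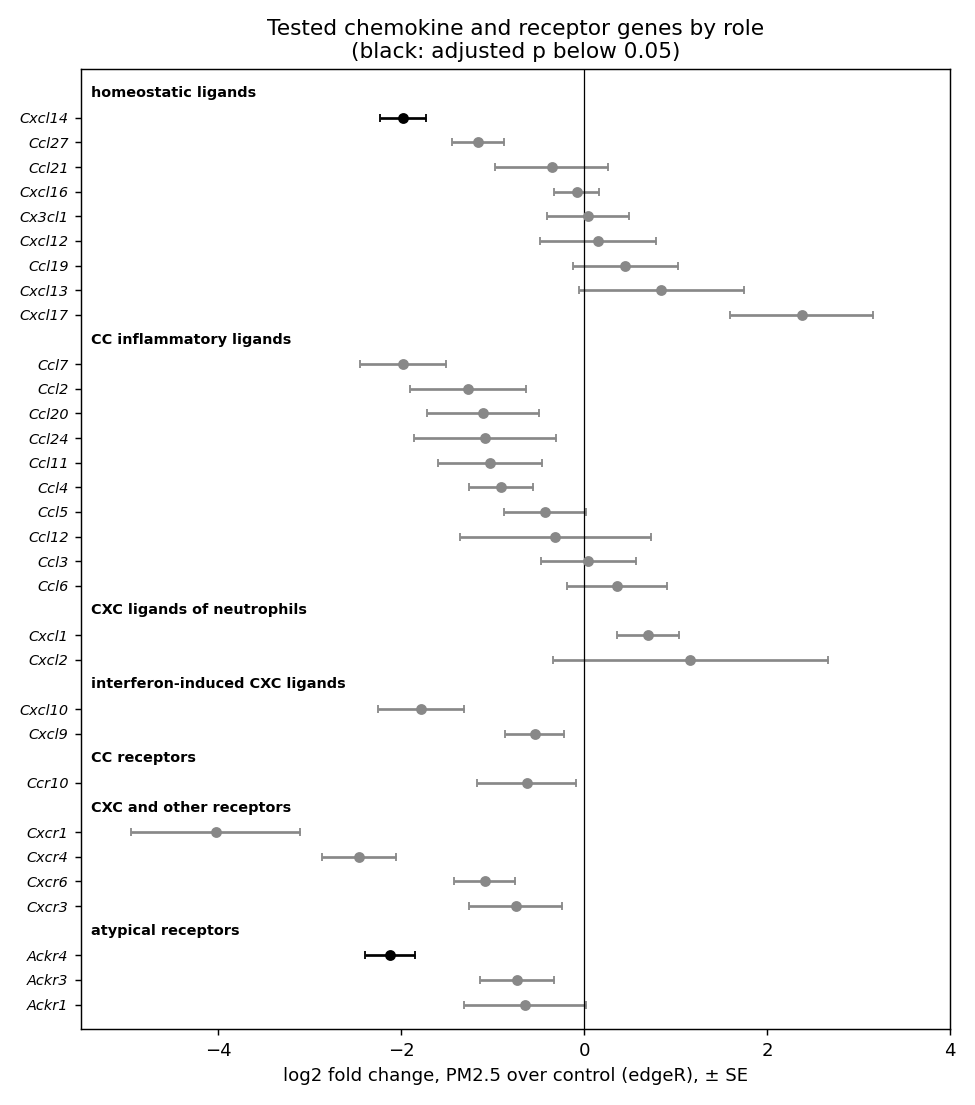
log2 fold change of PM2.5 over control with its SE for 31 of the 32 tested members, grouped by role, from edgeR. Cxcl14 and Ackr4 (black) had an adjusted p below 0.05, and all 8 receptors shown lie below 0.

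Among the homeostatic ligands other than Cxcl14, the differences went both ways. Ccl27, a CCR10 ligand best known from skin, had 7.47, 7.78 and 9.92 CPM in the controls and 3.32, 4.23 and 3.73 CPM in PM2.5 libraries 1 to 3. The groups were apart and each was tight (log2 fold change -1.16 ± 0.29, adjusted p = 0.110 in edgeR and 0.00209 in DESeq2). Its span touches Il11ra1 on the opposite strand, which was at 0.19 ± 0.16. Cxcl17, a chemokine of mucosal epithelia, had 1.23, 1.04 and 0.646 CPM in the controls and 5.88, 8.42 and 0.927 CPM in PM2.5. PM2.5 libraries 1 and 2 were high and library 3 lay within the control range (log2 fold change 2.38 ± 0.78, adjusted p = 0.164 in edgeR and 0.0284 in DESeq2).

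The same 2 libraries stood out for the summed markers of epithelium, fat, and pericytes and smooth muscle, though not for every marker. Upk3b was highest in control 2, at 3.62 CPM, and Msln in PM2.5 library 2, at 4.17 CPM, lay within the control range. Plin1, Pdgfrb and Rgs5 were highest in control 3. The 4 markers of the ovarian surface epithelium (Krt8, Krt18, Upk3b and Msln) summed to 254 and 335 CPM in PM2.5 libraries 1 and 2, 33.4 CPM in PM2.5 library 3 and 17.2 to 65.8 CPM in the controls. The 4 adipocyte markers summed to 47.0 and 58.4 CPM in those libraries and to 8.78 to 17.3 CPM in the other 4. The part of these markers in the Cxcl17 values was not tested.

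Cxcl12 had 65.8, 121 and 24.7 CPM in the controls and 97.7, 31.1 and 107 CPM in PM2.5 libraries 1 to 3. Libraries of both groups spread widely and overlapped (log2 fold change 0.16 ± 0.64, adjusted p = 0.913), and with 1 library left out the difference ran from -0.25 to 0.80. The libraries of its receptor Cxcr4 did not overlap between groups. Ccl21, which with CCL19 guides CCR7-bearing dendritic cells and T cells along lymphatic vessels, had 120, 310 and 69.0 CPM in the controls and 92.0, 77.8 and 220 CPM in PM2.5. Control 2 and PM2.5 library 3 were the highest (log2 fold change -0.35 ± 0.62, adjusted p = 0.778), and without control 2 the difference was 0.46. Ccl19 had 1.89 ± 0.86 and 2.59 ± 1.33 CPM (log2 fold change 0.45 ± 0.57, adjusted p = 0.691). Both are ligands that the ACKR4 protein removes, and only the RNA of these genes was measured.

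The membrane-bound ligands Cx3cl1 and Cxcl16 had log2 fold changes of 0.04 ± 0.45 and -0.08 ± 0.25. Cx3cl1 had 19.9 ± 5.57 and 20.5 ± 10.9 CPM in control and PM2.5 libraries, and Cxcl16, whose end overlaps Zmynd15 on the opposite strand, had 30.7 ± 3.20 and 29.0 ± 8.83 CPM. Their receptors Cx3cr1 and Cxcr6 lay apart between groups. Cxcl13, which draws B cells through CXCR5, had 3.25 ± 2.43 and 5.84 ± 3.95 CPM, with control 3 the lowest at 0.444 CPM (log2 fold change 0.85 ± 0.90). Whether ligand and receptor fold changes differ was not tested for any pair.

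**Figure D4:**
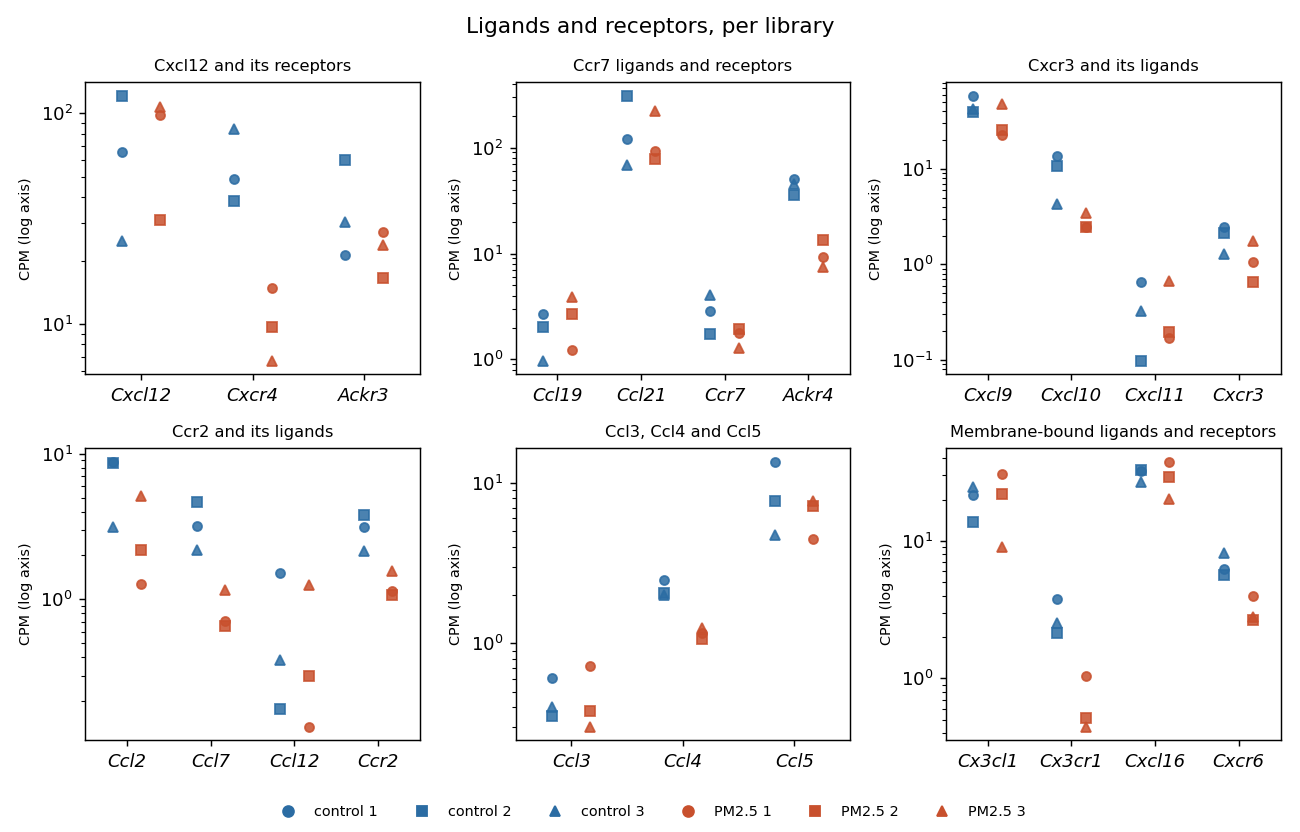
CPM per library, on log axes, of ligands and receptors grouped by shared binding or, for Ccl3, Ccl4 and Ccl5, as ligands alone, with controls in blue and PM2.5 in orange and 1 symbol shape per library number. The receptors Cxcr4, Ackr4, Ccr2, Cx3cr1 and Cxcr6 and the ligands Ccl4, Ccl7 and Cxcl10 lie lower in each PM2.5 library than in any control. The other genes shown overlap, among them the receptors Ackr3, Ccr7 and Cxcr3 and the ligands Cxcl12, Ccl21, Cxcl9, Cx3cl1 and Cxcl16.

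Of the 24 members that were not tested, 13 were receptors. Several receptors had enough counts to be read. Cx3cr1, the CX3CL1 receptor of monocytes and macrophages, had 181, 110 and 124 counts in the controls and 54, 31 and 22 counts in PM2.5 libraries 1 to 3. Ccr2, the CCL2 receptor of monocytes, had 149, 195 and 106 counts and 60, 65 and 78 counts. Both were lower in every PM2.5 library, also as CPM. Xcr1, the XCL1 receptor of cross-presenting dendritic cells, had 32, 128 and 63 counts against 9, 41 and 8, where PM2.5 library 2 overlapped control 1. In an edgeR fit of all genes without the filter, the log2 fold changes were -2.08 ± 0.53 for Cx3cr1, -1.25 ± 0.43 for Ccr2 and -2.11 ± 0.83 for Xcr1, with adjusted p of 0.152, 0.225 and 0.279.

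Ccr7 had 89 to 201 counts in the controls and 64 to 118 in PM2.5, which overlapped. Ccr9 had 381, 0 and 245 counts in the controls and 98, 72 and 0 in PM2.5, and it too overlaps Fyco1. Ackr2, which removes inflammatory CC chemokines and lies within the span of Cyp8b1, had 245 counts in control 2 and 276 in PM2.5 library 3 and between 19 and 66 in the other 4 libraries. The libraries of these 3 overlapped between groups. In the fit without the filter, the log2 fold changes were -0.79 ± 0.46 for Ccr7, -2.08 ± 1.82 for Ccr9 and 0.47 ± 1.15 for Ackr2. Their adjusted p in that edgeR fit were 0.439, 0.570 and 0.867. Ccr8 had 12, 8 and 4 counts in the controls and 0 in each PM2.5 library, where a count of 0 allows up to 3 counts (0.0494 to 0.0604 CPM, counting error only), so the difference rests on few reads.

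Ccr3, Ccr4, Ccr6, Cxcr2 and Cxcr5 had at most 42 counts in a library, and Ccr1l1 had 16, 12 and 0 counts in PM2.5 libraries 1 to 3 and 0 in each control. Of the ligands not tested, Ccl9 had 33, 61 and 45 counts in the controls and 0, 6 and 19 in PM2.5, and Xcl1 had 40, 17 and 13 against 0, 0 and 12. Both lay wholly below the controls. Ccl28, a CCR10 ligand of mucosal epithelia, had 0, 3 and 0 counts in the controls and 26, 26 and 4 in PM2.5, again with libraries 1 and 2 highest. Ccl1, Ccl17, Ccl22, Ccl25 and Ccl26 had at most 23 counts in any library.

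Per gene length, the most abundant members were Ccl21 at a mean of 142 FPKM over the 6 libraries, Cxcl14 at 140, Cxcl9 at 30.3, Cxcr4 at 17.5, Cxcl16 at 12.2, Cxcl12 at 9.20 and Ackr4 at 8.56 FPKM. In controls Cxcl14 stood at 223 ± 63.3 and Ccl21 at 160 ± 128 FPKM, and their libraries overlapped. In PM2.5 Ccl21 stood at 124 ± 74.7 and Cxcl14 at 57.1 ± 4.46 FPKM, with each Ccl21 library above each Cxcl14 library. Cxcr4 was at 29.6 ± 11.3 FPKM in controls, within the spread of Cxcl9 at 35.9 ± 7.75 FPKM, and at 5.45 ± 2.16 FPKM in PM2.5, below Cxcl9 at 24.8 ± 10.8 FPKM and Cxcl16 at 11.9 ± 3.62 FPKM.

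**Figure D5:**
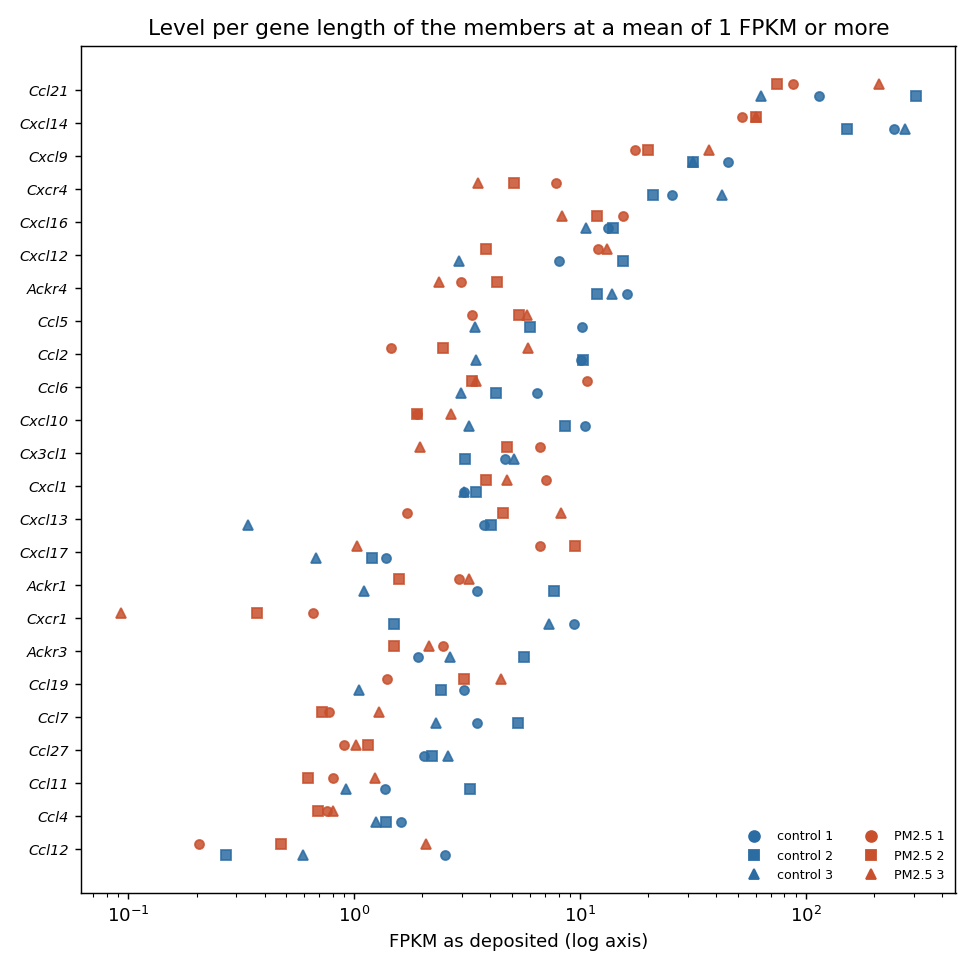
Deposited FPKM per library, on a log axis, of the 24 members with a mean of at least 1 FPKM, ordered by that mean, with controls in blue and PM2.5 in orange. Ccl21 and Cxcl14 lie at the top, and the controls of Cxcl14, Cxcr4, Ackr4 and Cxcr1 lie to the right of their PM2.5 libraries.

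Many members sit in gene clusters, and how the authors' counting treated reads shared by near-identical copies, which occur among CC ligand genes, is not stated. Within a cluster, values differed between members. On chromosome 10, Ccl2 (67005424 to 67007226), Ccl7 (67016446 to 67018303), Ccl11 and Ccl12 lie close together, with log2 fold changes of -1.27, -1.98, -1.03 and -0.32, and another stretch with Ccl5, Ccl6, Ccl3 and Ccl4 held values of -0.43, 0.36, 0.05 and -0.91. On chromosome 14, Cxcl9 (15722908 to 15728435) and Cxcl10 (15704758 to 15706975) had log2 fold changes of -0.54 and -1.78, and Cxcl1 (17193365 to 17195215) and Cxcl2 had 0.70 and 1.16. None of these 4 passed in edgeR. On chromosome 5, Ccl19 and Ccl21 overlapped between groups while Ccl27, which lies near them, was apart. Chromosome 8 carries 13 members, among them Ackr4 and Cxcr6, which both lay apart and lower.

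The wider chemokine pathway was followed in 78 listed genes, of which 75 were in the table and 67 were tested. Their median log2 fold change was -0.02, with 36 below and 31 above the controls. Sdc1 and Gng2 fell and no gene rose in edgeR's adjusted test (6 higher and 9 lower at an unadjusted p below 0.05, and 2 higher and 7 lower with DESeq2). Of all tested genes, 0.738% were called lower and 0.190% higher in edgeR's adjusted test. Of the 67, 15 had an unadjusted p below 0.05 and 9 passed with DESeq2, which is near the 20.9% and 11.5% of all tested genes. By direction, these shares of all tested genes were 9.17% higher and 11.7% lower without adjustment, and 4.78% higher and 6.77% lower with DESeq2. Sdc1, the syndecan whose heparan sulfate chains bind chemokines, had 508, 549 and 728 CPM in the controls and 163, 151 and 165 CPM in PM2.5 libraries 1 to 3 (log2 fold change -1.90 ± 0.18, adjusted p = 0.0434). Gng2, named for a G protein gamma subunit, had 40.3, 37.9 and 38.9 CPM against 21.5, 21.1 and 19.2 CPM (log2 fold change -0.92 ± 0.14, adjusted p = 0.0463). The deposited annotation lists this Gng2 gene as a long noncoding RNA. In both genes the groups were well apart. With any 1 library left out, neither gene passed.

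Of the 43 tested genes that carry the signal below the receptors, Dock2, the Rac activator that leukocytes use to migrate, was at -1.47 ± 0.26 (adjusted p = 0.0591) and Rgs2, a brake on G protein signals, at -2.39 ± 0.48 (adjusted p = 0.0724). Among genes that handle ligands, Mmp12, a macrophage metalloelastase that cleaves chemokines, was at -2.13 ± 0.47 (adjusted p = 0.0884). In each of these 3, every PM2.5 library was below every control, beside 15.2% of all tested genes. Of the 43 signalling genes, 21 had a negative and 22 a positive log2 fold change. In 7 of them the PM2.5 libraries lay wholly below the controls and in 4 wholly above. Of the 16 tested genes that handle ligands, 8 were negative and 8 positive, with 2 wholly below and 2 wholly above. Dock2, Rgs2 and Mmp12 were named after their values were seen, as the next by p in edgeR's test. That choice favours genes whose groups do not overlap. Of the 8 tested inducers of ligand genes none passed in edgeR or DESeq2. In edgeR 1 was higher and 1 lower at an unadjusted p below 0.05, beside 9.17% and 11.7% of all tested genes. Nfkb1 was at -0.49 ± 0.16 and Nfkbia, the NF-kB inhibitor, at 0.56 ± 0.19 (adjusted p 0.164 and 0.178), and Rela was at -0.27 ± 0.14 (0.320).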

How the data were processed

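Per the labels' protocols, RNA of 6 ovary samples was extracted with Trizol, selected for poly(A), copied with dUTP and sequenced from both ends. Per the submitters' processing notes, the tools were HISAT2 2.2.1, StringTie 2.1.6, cutadapt 1.9, edgeR and DESeq2, with no roles given. The deposited table holds a raw count and an FPKM value, normalised by the authors, per gene and library. All count and FPKM columns were used. Here counts were tested with edgeR 4.0.16 in R 4.3.3 (TMM, glmQLFit and glmQLFTest, two-sided, Benjamini-Hochberg at 0.05) in genes that averaged 0.5 FPKM or more. The SE is the log2 fold change divided by the square root of F. Alternatives were DESeq2 1.42.0, limma 3.58.1, other filters and scalings, leaving out each library and a replicate block. The fit was tested on simulated data. No library repeated another (within a group, chi-square divided by its degrees of freedom was 134 or more). The members and lists were chosen with earlier results of these data known. Every tested member but 1, which is not reported here beyond its place in counts and sums, is named, and values per library are given for those at an unadjusted p below 0.05 or with groups that do not overlap, and for Ccl2 and Cxcl12. Of pathway genes, those that passed are named, or in a list where none passed up to 4 by p, and 3 others chosen after their values were seen. Sequences and annotation of the mouse were not used here.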

Additional observations from a re-analysis of the deposited data

How the results depend on the processing

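The count of genes changed was 142 of 15303, and became 1767 with DESeq2, 87 under filterByExpr, 8 with no filter, 1 with the replicate block and 0 to 7 when 1 library was dropped. The count of chemokine and receptor genes changed was 2, and became 9 with DESeq2, 0 with no filter, 0 with the replicate block and 0 to 1 when 1 library was dropped. DESeq2 called Ackr4, Ccl27, Ccl7, Cxcl10, Cxcl14, Cxcr1, Cxcr4 and Cxcr6 lower and Cxcl17 higher, where it called 11.5% of all tested genes. Members at an unadjusted p below 0.05 numbered 10 of 32 (20.9% of all tested genes), 16 of 56 without a filter (3604 of 22487 genes in all) and 7 to 12 with a library left out (12.4% to 22.9% of all). Pathway genes changed numbered 2, and 9 with DESeq2, 1 under filterByExpr, 1 with no filter, 1 in each limma fit, 0 with the replicate block and 0 in each fit with a library left out. Fits with a library left out held fewer samples, and the other causes were not tested. The fit with a replicate block gave Cxcl14 -1.93 (adjusted p = 0.114) and Ackr4 -2.15 (adjusted p = 0.118). Same-numbered libraries deviated from their group means with correlations of -0.296, 0.133 and -0.0525, and not every library correlated best with its own number, so the numbers were not taken as pairs. Without a filter the adjusted p was 0.0505 for both Cxcl14 and Ackr4. Of 501 values of the 32 tested members under the alternatives, none turned a called direction, 15 lost a call and 11 gained one. All 15 lost calls were those of Cxcl14 and Ackr4, the only members with a call to lose, each under 16 alternatives. The 24 members below 0.5 FPKM, with 6 to 796 counts over the 6 libraries, were left out by that limit, which depends on gene length as well as on depth.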
